A study of Mus musculus with 4 samples.

Results

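Sustentacular cells are the supporting cells of the olfactory epithelium. Here they are 125 of 9110 cells from 4 single-cell libraries of CD-1 mice, an outbred stock, with 1 library of olfactory epithelium at each age: the day of birth (P0) and postnatal day 3 (P3), 7 (P7) or 21 (P21). The tissue was dissociated with papain, the cells were loaded as sorted samples, and transcripts were counted by unique molecular identifiers (UMIs). The labels give no treatment and name the libraries for olfactory sensory neurons (OSNs), and the supporting cells are a small fraction of each. Neither the gate of the sort nor the number of mice pooled is stated in the labels. Members were chosen on measured values. A member had at least 500 detected genes, at most 10% of its UMIs from mitochondrial genes, at least 3 UMIs of Cyp2g1, at most 2 of the mature-neuron gene Omp, at most 1 of the immature-neuron gene Gap43 and 0 of the basal-cell gene Krt5. In order of age, the rule found 41, 8, 61 and 15 cells. Where 4 values follow each other below, they stand in the order P0, P3, P7, P21, and where 2 do, in the order P0, P7.

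Sustentacular cells span the epithelium from its apical surface to the basal lamina and surround the sensory neurons. They carry microvilli, seal the surface with tight junctions, take up debris of dead neurons, and move ions and water. They are known above all for cytochrome P450 and conjugating enzymes, which break down inhaled chemicals and odorants. Cyp2g1 is a cytochrome P450 of the olfactory mucosa, Cyp1a2 and Cyp2a5 are P450s that act on many foreign compounds, Cbr2 is a carbonyl reductase, and Ermn (ermin) binds actin.

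The genes that mark these cells were checked first by position. Cyp2g1 lies on chromosome 7 (26808892 to 26821205, plus strand, mm10) next to Cyp2a5 (26835305 to 26843548, plus strand). Cyp1a2 lies on chromosome 9 (57676937 to 57683703, minus strand), Ermn on chromosome 2 (58045113 to 58052864, minus strand) and Cbr2 on chromosome 11 (120729489 to 120732114, minus strand). All are protein-coding. The promoter windows of 4 genes on which the results turn are printed because they show what stands before a P450 gene that leads the cells, before the marker with the highest ratio to other cells, and before 2 genes that go together from cell to cell. They come from RefSeq, build GRCm38.p6, run from 250 bases before to 50 after the start site, and are written 5′ to 3′ on the gene's strand. Cyp2a5 is chr7:26835089-26835388 (plus), Cyp1a2 is chr9:57683606-57683905 (minus), Sult1c1 is chr17:53990582-53990881 (minus) and Acsm4 is chr7:119689776-119690075 (plus). Capitals mark exact matches on either strand to TTGGCA (a half-site of nuclear factor I), GCGTG (the core of the aryl hydrocarbon receptor site), TATAAA (the TATA box) or AGGAAG (a site of the ETS family, to which Elf5 belongs).
Cyp2a5: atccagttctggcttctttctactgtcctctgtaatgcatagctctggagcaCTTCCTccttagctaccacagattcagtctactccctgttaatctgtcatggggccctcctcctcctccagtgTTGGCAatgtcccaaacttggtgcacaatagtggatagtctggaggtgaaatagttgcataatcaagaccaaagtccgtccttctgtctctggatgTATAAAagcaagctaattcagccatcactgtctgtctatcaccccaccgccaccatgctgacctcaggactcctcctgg
Cyp1a2: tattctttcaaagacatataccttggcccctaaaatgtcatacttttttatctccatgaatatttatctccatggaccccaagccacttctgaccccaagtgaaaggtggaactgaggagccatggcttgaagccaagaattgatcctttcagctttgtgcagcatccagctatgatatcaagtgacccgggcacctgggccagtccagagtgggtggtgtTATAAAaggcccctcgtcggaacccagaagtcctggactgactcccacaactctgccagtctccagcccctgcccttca
Sult1c1: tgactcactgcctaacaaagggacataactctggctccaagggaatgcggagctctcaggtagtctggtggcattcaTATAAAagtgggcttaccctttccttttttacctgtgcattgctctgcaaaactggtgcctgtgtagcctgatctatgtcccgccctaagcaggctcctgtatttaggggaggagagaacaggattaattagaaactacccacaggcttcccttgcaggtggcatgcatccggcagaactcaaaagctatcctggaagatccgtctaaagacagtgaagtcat
Acsm4: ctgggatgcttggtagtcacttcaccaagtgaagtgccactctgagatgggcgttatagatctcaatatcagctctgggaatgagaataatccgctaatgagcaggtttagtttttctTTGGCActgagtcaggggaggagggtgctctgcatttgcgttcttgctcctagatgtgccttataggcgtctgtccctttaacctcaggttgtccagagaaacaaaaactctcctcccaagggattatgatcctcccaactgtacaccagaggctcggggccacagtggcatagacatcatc
TTGGCA was found once in the Cyp2a5 window, with its first base at -125 from the start site, and once in that of Acsm4, at -132. TATAAA was found once each in Cyp2a5, Cyp1a2 and Sult1c1, and AGGAAG once in Cyp2a5. In Sult1c1 the TATAAA match lies far upstream in the window, whereas in Cyp2a5 and Cyp1a2 it lies shortly before the start site. Over 32851 windows of this length, 14.1% held TTGGCA, 32.4% GCGTG, 13.6% TATAAA and 35.4% AGGAAG. These matches are descriptions of letters. For Cyp2g1 only the name is given.

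Depth sets how far each library can be read. Summed over members, the libraries held 117717, 46532, 267014 and 120358 UMIs. The median member had 2459, 3974, 3350 and 6635 UMIs, against 3227, 4982, 4682 and 4410 over all kept cells. Mitochondrial genes took a median of 2.96, 1.86, 2.38 and 1.70% of a member's UMIs, against 0.828, 0.766, 0.875 and 0.983% in other cells. Single cells weigh heavily: the deepest one held 9.65, 30.5, 11.8 and 21.4% of the members' UMIs. Levels below are the members' summed UMIs from 3′ ends, scaled to CPM, the usual unit of counts relative to a fixed total that is the same for every library. Their 95% intervals are exact and cover counting error only, not the spread between cells, mice or libraries. No level, share or fold has a replicate, so no test across ages was possible, and age and library cannot be told apart. The P0 and P3 libraries share 68 cell barcodes, of which 1 belongs to a P0 member and 0 to a P3 member.

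Of the kept cells, members made up 1.52% (1.10 to 2.06%) in the P0 library and 0.248% (0.107 to 0.489%) in that of P3. The P7 library had 3.42% (2.62 to 4.37%) and the P21 library 1.06% (0.595 to 1.74%), with exact binomial intervals. These shares can be set by the sort, whose gate is unknown, as well as by the tissue. The upper limits on neuronal and basal genes removed few cells: 2 of 43, 2 of 10, 3 of 64 and 0 of 15 cells with at least 3 Cyp2g1 UMIs. Just inside the threshold, the 7 cells with exactly 3 Cyp2g1 UMIs had 4163 CPM of Cbr2, with UMIs in 6 cells. Just outside it, the 16 cells with 2 UMIs had 621 CPM of Cbr2, with UMIs in 7 cells. Of the 97 Cbr2 UMIs inside, 43 lay in 1 P3 cell. Ermn stood at 429 CPM inside (6 cells) and 76.1 outside (1 cell), and Cyp2a5 at 2189 (6 cells) and 444 (6 cells). Cyp1a2 hardly separated the 2 groups, with 42.9 CPM from 1 UMI inside and 25.4 CPM from 2 UMIs outside.

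The other 3 marker genes were checked in the members. At P0 Cyp1a2, Ermn and Cbr2 were all detected in 18 of 41 members, 2 of the 3 in 14, 1 in 7 and none in 2. At P7 the numbers were 30, 24, 6 and 1 of 61 members. At P3 they were 2, 4, 2 and 0 of 8, and at P21 they were 6, 3, 5 and 1 of 15. The label held least well at P21, where 6 of 15 members had at most 1 of the 3.

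Cyp2g1, which the rule used, stood at 6142 (5702 to 6606), 2321 (1904 to 2802), 7988 (7653 to 8335) and 4212 CPM (3854 to 4596). Per member it ran from 3 to 61 UMIs at P0 (median 12), from 3 to 33 at P3 (median 9.50), from 3 to 172 at P7 (median 22) and from 4 to 99 at P21 (median 13), so it varied widely within a library. Cbr2 stood at 4570, 2321, 6232 and 2642 CPM. Ermn stood at 552, 258, 655 and 357 CPM. The values of P3 and P21 rest on 8 and 15 cells and are given as levels only.
Cyp1a2 stood at 433 (323 to 570), 150 (60.5 to 310), 592 (503 to 692) and 1255 CPM (1062 to 1471). It had the highest ratio to other cells of all leading genes: its pooled level was 665 CPM in members and 0.716 CPM in the other cells, and its UMIs lay in 76 of the 125 members. At P0 it was detected in 58.5% of 41 members and in 0.163% of 614 mature sensory neurons, cells that should lack it, with median depths of 2459 and 4542 UMIs. With cells thinned to 2000 UMIs the member share was 45.8% of 24 cells (25.6 to 67.2%), with 17 shallower members left out.

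**Figure D1:**
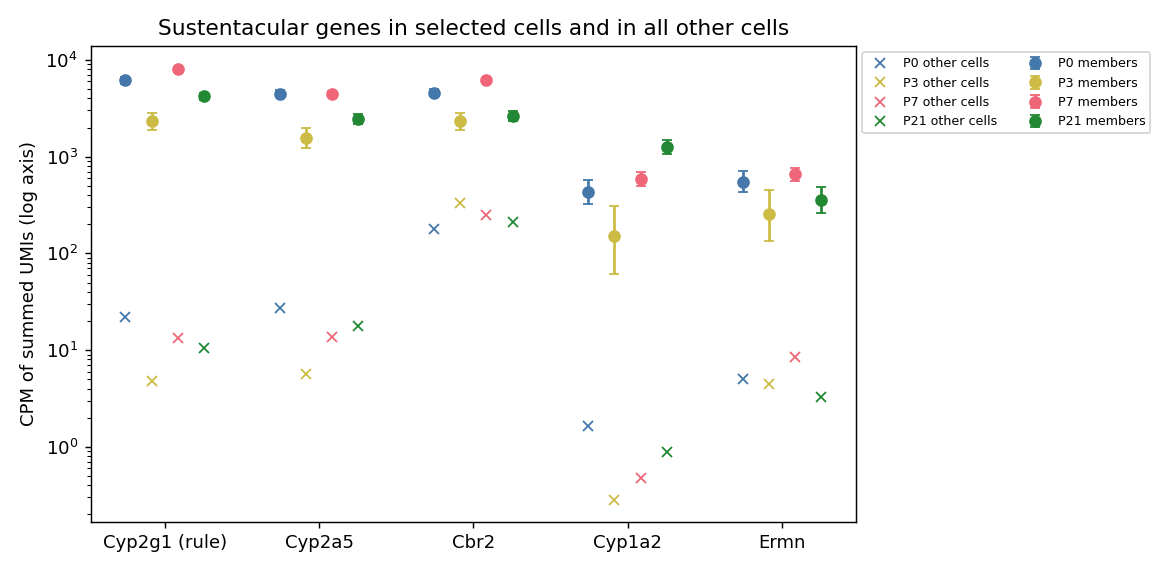
Summed level of 5 genes in the members (circles, with exact Poisson 95% intervals for counting error) and in all other kept cells (crosses), by library, on a log axis of CPM. Cyp2g1 was used to choose the members. Members lie above other cells in each library for each of the 5 genes, by least for Cbr2, where other cells reach 177 to 335 CPM.

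To describe what these cells express, members were set against all other cells. This is the contrast of the rule, so it carries no test. A gene was counted as leading at 4-fold or more over other cells in the pooled libraries, with at least 100 CPM and 20 UMIs, and higher in each library with 10 or more members. By this rule 213 of 1720 genes led (12.4%). The shares below can be read against that figure, but nothing is drawn from them.

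Enzymes of foreign-compound metabolism come first. Of 9 measured P450, reductase and flavin monooxygenase genes 8 led, of 12 conjugation genes 8, and of 8 aldehyde, alcohol and ester genes 6. Cyp2a5 stood at 4485, 1569, 4472 and 2459 CPM and was pooled 273-fold above other cells (249 to 300). Por, the reductase that supplies P450s with electrons, stood at 1164, 537, 1124 and 607 CPM. Cyb5a (cytochrome b5, a second electron donor) stood at 3695, 1483, 2554 and 3066 CPM. Among the conjugating enzymes, the glutathione transferase Gstm1 reached 4715 CPM at P0 and 6947 at P7, Gsta4 2464 and 3146, and the membrane-bound Mgst1 2294 and 2468. Pon1 (paraoxonase, an esterase) led 139-fold and Aldh1a7 (an aldehyde dehydrogenase) 123-fold. The glucuronosyltransferase Ugt2a1, often named with this tissue, was at 0, 21.5, 26.2 and 0 CPM, from 8 UMIs in all, and it shares its 3′ end with Ugt2a2.

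Cyp2g1 and Cyp2a5 stand in a cluster of 13 Cyp2 genes on chromosome 7 (25802475 to 27158668, mm10). Only 4 of the 13 had a UMI in any member: Cyp2g1, Cyp2a5, Cyp2f2 and Cyp2b10. Cyp2f2, another P450 of airway tissue, stood at 476, 107, 622 and 1088 CPM. Cyp2b10 gave 21 UMIs in all and 59.9 CPM at P7 (34.3 to 97.3). The other 9 gave 0 UMIs, with an exact upper limit of 13.8 CPM each at P7. One of these, Cyp2a4, has a 3′ end almost identical to that of Cyp2a5, so the counts of the pair cannot be separated. Cbr2, Gstm1 and Cyp4b1 likewise share 3′ ends with pseudogenes and are uncertain to that extent.

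Genes of surface, barrier and transport are described next. The keratins Krt18 and Krt8, which form the filaments of simple epithelia, stood at 3245 and 1019 CPM at P0 and at 3049 and 1292 at P7. Ezr (ezrin) and Slc9a3r1, which tie membrane to actin in microvilli, also led, making 5 of 8 apical cytoskeleton genes. Of 8 ion and water genes 5 led: the aquaporins Aqp3, Aqp4 and Aqp5 (1062, 382 and 382 CPM at P0; 1528, 521 and 573 at P7) and the potassium channels Kcnk1 and Kcnk2. Atp6v0a4, a subunit of the proton pump, led 144-fold and the lipid transporter Abca13 139-fold. Of 8 junction genes only Cldn10 and Cdh1 led. Of 10 phagocytosis and lysosome genes only Tyro3, a receptor for dying cells, did.

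Transcription factors of non-neuronal fate were a further group. Of 11 measured fate and Notch genes 7 led: Sox2, Pax6, Otx2, Hes1, Hey1, Elf5 and Klf5. Elf5, an ETS factor, led 102-fold, with 272, 236, 528 and 440 CPM. Sox2 stood at 297, 193, 348 and 133 CPM and Pax6 at 178, 64.5, 169 and 141 CPM. Of the list's Notch receptors, Notch2 stood at 59.5 CPM at P0 and 63.7 at P7, and Notch1 at 25.5 and 33.7.

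The 10 most abundant genes, mitochondrial and ribosomal protein genes aside, included genes known from most cell types: the nuclear RNA Malat1 (42560 and 45357 CPM), the histone gene H3f3b, the actin binder Tmsb4x and the ferritin gene Ftl1. The others were Cyp2g1, Gstm1, Scgb1c1, Cbr2, Cyp2a5 and Wfdc18, the last of which owes its place to few cells.

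Other genes among the 20 with the highest ratios had varied roles. The alarmin cytokine Il33 stood at 569, 172, 674 and 299 CPM and led 174-fold. The gel-forming mucin Muc2 led 270-fold, at 289, 107, 236 and 158 CPM. Agr2, which folds mucins, led 138-fold. AU021092 (389-fold), Sec14l3, a lipid-binding protein (155-fold), and Tmem213 (121-fold) also ranked there. Chil6, Msln and Cyp4b1 did too, but with UMIs in 10, 8 and 9 members only.
The protease gene Tmprss2 stood at 51.0, 0, 93.6 and 41.5 CPM in members and at 0.771 and 0.239 CPM in other cells at P0 and P7. None of 17 oxidative phosphorylation genes led, and none of 3 retinoid genes.

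Many leading genes were not limited to these cells. The classes set beside them were 2666 mature sensory neurons, 342 horizontal basal cells (reserve stem cells, chosen on Krt5 and Krt14) and 29 secretory cells (chosen on Reg3g). Of the 213 leading genes 206 were at least 4-fold above mature neurons, 100 above horizontal basal cells and 86 above secretory cells. Against all 3 classes 57 were (26.8%). Cbr2, listed as a marker, stood at 4764 CPM in members and 5632 in horizontal basal cells. Gstm1 stood at 5763 and 4767, Fmo6 (a flavin monooxygenase) at 263 and 453. By contrast Cyp1a2 stood at 0.767 CPM in horizontal basal cells, Cyp2a5 at 16.9 and Ermn at 79.0. In secretory cells Sftpd (surfactant protein D) stood at 363 CPM against 399 in members, and Tst (a sulfur transferase) at 1462 against 2036. Of the 4 listed markers, Cbr2 alone was as high in another class.

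**Figure D2:**
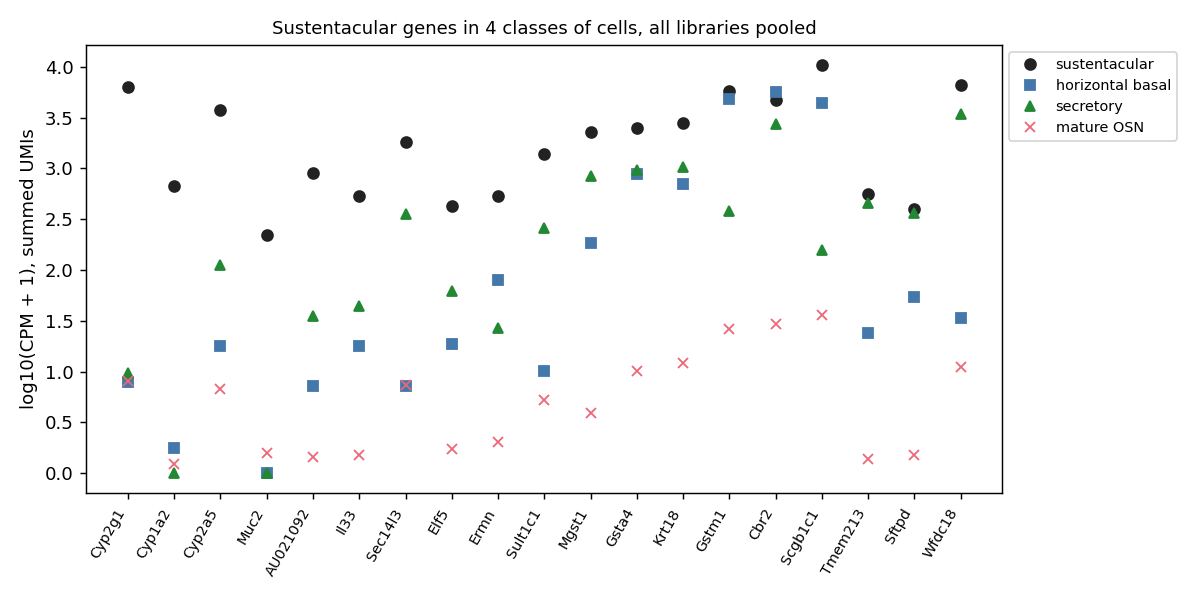
Pooled level of 19 genes as log10(CPM + 1) in the 125 sustentacular members and in horizontal basal, secretory and mature olfactory sensory neuron (OSN) classes. Cyp2g1, Cyp1a2, Cyp2a5 and Muc2 are high in members only, whereas Cbr2 and Gstm1 are near their member level in horizontal basal cells.

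Markers of other cell types were counted in the members. Of 10 leukocyte markers 2 had a UMI, with 25.5 CPM or less in each library, and of 8 endothelial markers 2 had one; Ptprc, C1qa, Cdh5 and Kdr were at 0. Mature-neuron markers summed to 714, 344, 228 and 507 CPM against 8499, 5410, 9589 and 27250 in other cells, and immature-neuron markers to 578, 408, 622 and 141 against 7562, 6292, 7765 and 5547. The 10 stromal markers summed to 1249, 2063, 2887 and 3722 CPM, most of it Rgs5, against 1050, 2241, 1634 and 191 in other cells, while Postn, Pdgfra and Pdgfrb were at 0. Horizontal basal markers summed to 1147, 602, 1592 and 798 CPM against 446, 574, 430 and 406 in other cells, with Krt5 (set to 0 by the rule), Icam1 and Col17a1 at 0. Most of this was Aqp3, named above as a leading gene, at 1062, 559, 1528 and 789 CPM. Ciliated-cell markers summed to 1674, 580, 2412 and 1329 CPM against 865, 508, 714 and 1217, with Foxj1, Dnah9 and Tmem212 at 0. Here most was Sec14l3, also a leading gene, at 1589, 451, 2363 and 1313 CPM. Progenitor markers summed to 934, 1526, 682 and 872 CPM against 2686, 3276, 3009 and 1485 in other cells. Microvillar markers summed to 416, 43.0, 63.7 and 349 CPM against 182, 142, 206 and 448. At P0 most of this was Coch, at 255 CPM, nearly all of it in 1 member. Ensheathing-glia markers summed to 229, 86.0, 180 and 174 CPM against 387, 521, 755 and 158. Erythroid markers stayed at 8.49 CPM or less.
Gland and secretory markers summed to 5054, 1956, 8419 and 35843 CPM against 1186, 468, 730 and 562 in other cells. Of the 16 markers 11 had a UMI, and Obp1a, Bpifb9a and Muc5ac were at 0. Most of that sum was Scgb1c1, a secretoglobin, at 4324, 1289, 6595 and 28357 CPM. It lay in 30 of 41, 6 of 8, 46 of 61 and 12 of 15 members. Pooled, Scgb1c1 stood at 10411 CPM in members, 4439 in horizontal basal cells and 156 in secretory cells. It therefore did not mark the secretory class used here.

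A few members carried a secretory programme at very high level. Wfdc18, a small secreted protein, had 10 or more UMIs in 2, 1, 1 and 4 members. The P7 cell alone held 99.5% of the members' Wfdc18 UMIs in its library, 98.0% of Ltf (lactotransferrin), 85.0% of Rgs5 and 49.4% of Vmo1. It was the deepest member of the series, with 31601 UMIs, and had 506 CPM of Cyp2g1 against a P7 median of 8326. At P21, Vmo1 reached 7320 CPM, 99.5% of it in 5 members, and Dcpp1 had 10 or more UMIs in 3 members. One further P21 member had 10 or more UMIs of Ascl3, a factor of microvillar and gland lineages. A P7 member of 12224 UMIs had 13 UMIs of Neurod1 and 6 of Gng8, from the progenitor and immature-neuron lists. No doublet caller was run, and the part of doublets or free RNA in these cells was not tested. The age comparison is also given below without the members rich in Wfdc18, whereas the Sult1c1 sets and correlations include them.

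**Figure D3:**
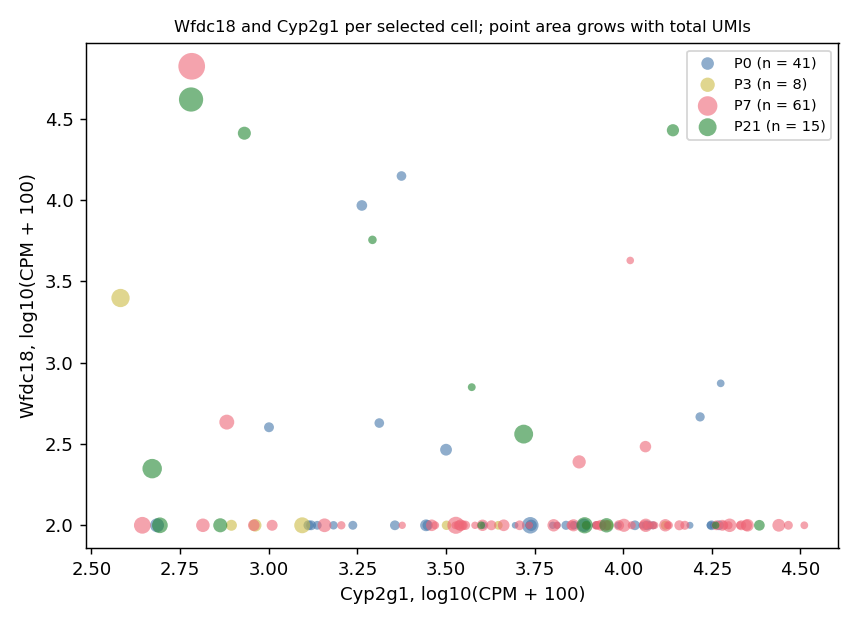
Each point is 1 of 125 members: Wfdc18 against Cyp2g1, both as log10(CPM + 100), coloured by library, with point area growing with the cell's UMIs. Most members sit at 0 Wfdc18 along the bottom; the largest P7 point at the top left is the cell of 31601 UMIs.

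Members also differed among themselves along an axis of conjugating enzymes. This pattern was chosen after values were seen, so it is described and not tested. Sult1c1 (a sulfotransferase, chromosome 17, 53961615 to 53990674, minus strand) was present in some members and missing in others. It had UMIs in 25 of 41, 3 of 8, 32 of 61 and 7 of 15 members, at summed levels of 1741, 559, 1648 and 781 CPM. In mature neurons 2.61% of cells at P0 and 2.52% at P7 had a UMI, at greater depth.
At P0, 618 genes were compared with Sult1c1 by Spearman's rank correlation over the 41 members, which share a library. With a correlation of 0.5 or more were 6 genes, and with -0.5 or less 4. Svopl (a transporter-like protein) had a correlation of 0.77 at P0, 0.66 over the 61 members at P7 and 0.59 over the 15 at P21. Acsm4 (a medium-chain acyl-CoA synthetase, known from a dorsomedial zone of the epithelium) had 0.72, 0.73 and 0.70. Gstm5 had 0.58, 0.58 and 0.63, and Fmo6 0.52, 0.68 and 0.17. On the other side Gstm1 had -0.60, -0.54 and -0.55, Cyp2f2 -0.55, -0.40 and -0.24, and Cpm (carboxypeptidase M) -0.57, -0.36 and -0.20. At P7 the 6 positive genes kept their sign and 3 of the 4 negative ones did, Tonsl being the exception (-0.53, then 0.04). The rank correlation of Sult1c1 with the cell's total UMIs was 0.07 at P0 and 0.21 at P7. Acsm4 was not particular to members, with a pooled 591 CPM in members, 472 in mature neurons and 144 in horizontal basal cells.

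The same axis is given again as levels. The genes were picked by their P0 correlation with Sult1c1 in these members, so the P0 levels are no separate evidence. At P0 the 17 members with 3 or more Sult1c1 UMIs had 1399 CPM of Acsm4 (1119 to 1728), and the 16 members with none had 50.2 CPM (6.08 to 181). Gstm5 stood at 2620 CPM in the first set and 100 in the second. Gstm1 was reversed, with 928 CPM (703 to 1202) in the first set and 11126 (10114 to 12212) in the second. At P7 Acsm4 stood at 758 CPM in 21 members with 3 or more Sult1c1 UMIs and at 9.54 in 29 without. Gstm5 stood there at 2785 and 19.1 CPM, and Gstm1 at 3255 and 11004. At P21 the sets held 5 and 8 members, with Gstm1 at 1964 and 10499 CPM and Gstm5 at 2648 and 2342, while Acsm4 stood at 1004 (781 to 1271) and 789 (533 to 1127). At P21, then, Gstm1 differed between the sets beyond counting error, and Gstm5 and Acsm4 did not, but each level leaned on 1 cell. In the set without Sult1c1, 1 member held 305 of 399 Gstm1 UMIs. Another, with 369 CPM of Cyp2g1, held all 30 Acsm4 and all 89 Gstm5 UMIs. In the other set 1 member held 102 of 135 Gstm1 UMIs. The intervals do not cover this spread between cells. At P3 the sets held 2 and 5 members, with Acsm4 at 1014 and 574 CPM.
Median depth differed between the sets, with 3180 and 2099 UMIs at P0 and 4511 and 2564 at P7, and deeper cells reach 3 UMIs more easily. The P7 set with 3 or more includes the cell of 31601 UMIs. That cell held 64 of the set's 338 Gstm5 UMIs and 3 of its 92 Acsm4 UMIs. The sets were not recounted without members rich in Wfdc18. Of the marker genes, Cyp2g1, which the rule used, stood at 6688 and 4521 CPM in the P0 sets, at 9740 and 5740 at P7 and, in the opposite order, at 2677 and 6315 at P21. Ermn stood at 521 and 628 CPM in the P0 sets and 577 and 715 at P7, and Cbr2 at 4410 and 4546, then 6864 and 5292. Nqo1, a marker of dorsal sensory neurons, gave 1 UMI in each P0 set. Acsm4 and Sult1c1, whose windows are printed above, share none of the 4 motifs.

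**Figure D4:**
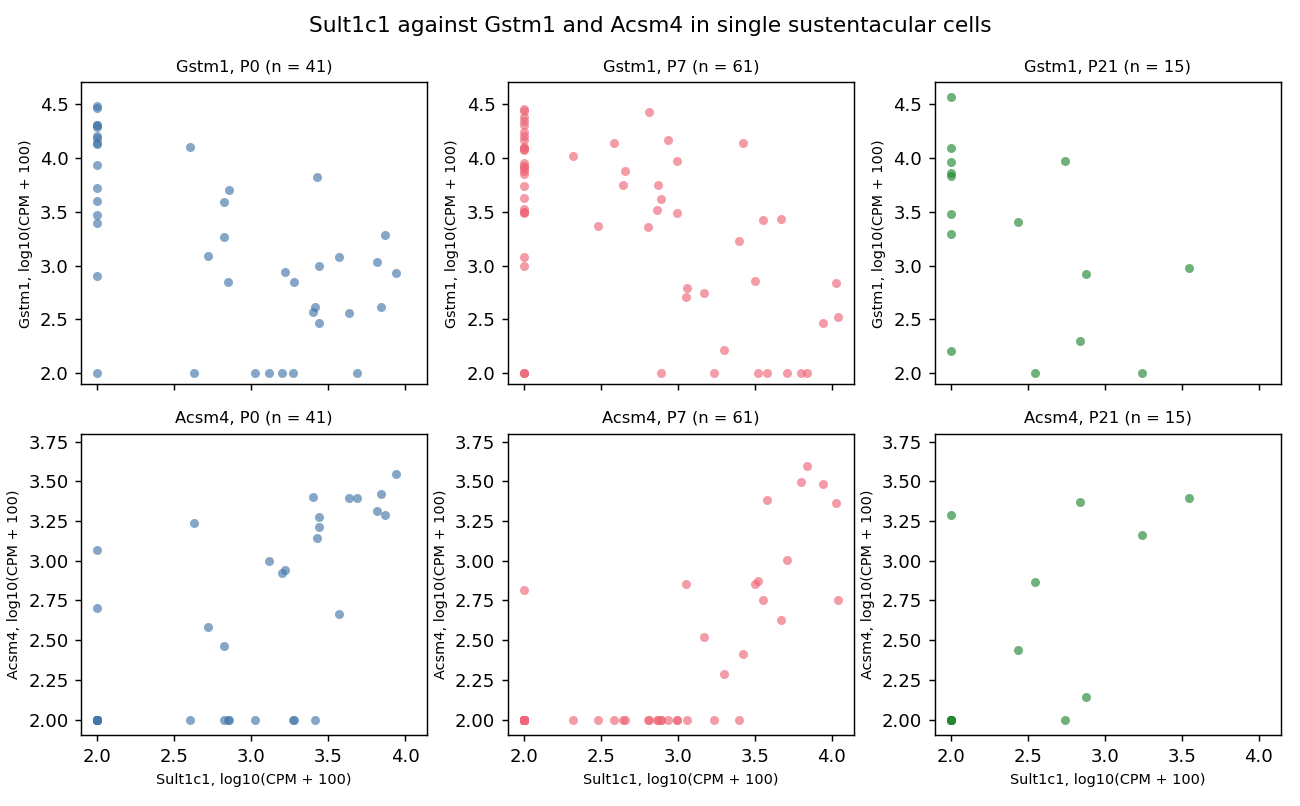
Per-cell levels at P0, P7 and P21 as log10(CPM + 100), with Sult1c1 on the horizontal axis and Gstm1 (top) or Acsm4 (bottom) on the vertical. Cells at the lowest value of an axis have no UMI. Members without Sult1c1 hold the highest Gstm1 values, and Acsm4 is found mainly in members with much Sult1c1.

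Cyp2g1 was compared with the same 618 genes, as a description only, since its values chose the members. Its closest genes at P0 were Cyp2a5 (correlation 0.63, then 0.66 at P7 and 0.71 at P21), Por (0.60, 0.52 and 0.73), Il33 (0.54, 0.53 and 0.67) and the zinc transporter Slc39a2 (0.51, 0.36 and 0.14). Its CPM had a correlation of -0.40 at P0 and -0.21 at P7 with the cell's UMIs, and the minimum of 3 UMIs admits shallow cells only at a high Cyp2g1 CPM.

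Ages were compared only between P0 and P7, the libraries with 30 or more members. Genes reaching 50 CPM and 20 UMIs in one of these libraries were measured. A gene was called higher or lower at P7 when the ratio of CPM was at least 1.5-fold and its interval excluded 1. Changes on the log2 scale add 10 CPM to both levels. Of 2452 measured genes 155 were higher (6.32%) and 121 lower (4.93%), and the median log2 change was 0.06. With median-of-ratios scaling, which shifts all log2 values by 0.12, 224 were higher and 73 lower, so higher calls were 75.4% of all calls in place of 56.2%.

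Calls among detoxifying enzymes can be read against the shares over all measured genes, 6.32% higher and 4.93% lower. Nothing is drawn from the counts. None of 8 measured P450 and reductase genes was called in either direction, with a median log2 change of 0.19. Cyp2a5 had a ratio of 0.997 (0.899 to 1.11), Por 0.965 (0.786 to 1.19) and Cyp2f2 1.31 (0.960 to 1.80). None of the 4 markers was called. Cyp2g1 had a ratio of 1.30 (1.19 to 1.42), which is a description only, since its values chose the members. The minimum of 3 UMIs asks for a higher CPM in shallower cells. The median member had 2459 UMIs at P0 and 3350 at P7. The rule can also bear on Cyp2a5 and Por, which went with Cyp2g1 from cell to cell (above). Without members over 2 times the median UMIs, Cyp2g1, Cyp1a2 and Cyp2f2 were called higher, and Cyp2f2 also with at least 5 Cyp2g1 UMIs. Of 15 conjugation genes none was higher and 2 were lower, Sult1e1 and Acsm4. Gstm1 had a ratio of 1.47 (1.34 to 1.62), under the minimum of 1.5, and was called higher with its highest cell left out (1.58; 1.42 to 1.75) and under 4 other alternatives. Acsm4 went from 799 CPM in 19 members at P0 to 348 CPM in 16 members at P7, a ratio of 0.436 (0.324 to 0.587), while Sult1c1 was 1741 and 1648 CPM. In other cells Acsm4 stood at 315 and 245 CPM. Sult1e1 (estrogen sulfotransferase, 382 and 139 CPM) was no longer called without the members rich in Wfdc18, at 45.2 and 55.2 CPM. Of 9 aldehyde, alcohol and ester genes Hsd17b11 was higher (51.0 and 131 CPM) and Cbr1 lower (212 and 109 CPM).

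Of 15 fate and Notch genes 4 were higher and 1 lower, with a median of 0.19. Over all measured genes 6.32% were higher and 4.93% lower. By count these were the most higher calls of the 19 functional lists, which differ in size and were chosen with earlier results known. Nothing is drawn from this order. By share, interferon and MHC genes (3 of 6) and fetal and imprinted genes (1 of 3) had more higher calls. Hes1, a Notch target, stood at 221 CPM in 13 members at P0 and at 453 CPM in 37 members at P7, a ratio of 2.05 (1.33 to 3.27). Klf5, a factor of epithelial growth, stood at 59.5 and 202 CPM (3.40; 1.54 to 8.86). Elf5 stood at 272 and 528 CPM (1.94; 1.32 to 2.95). Lhx2, a factor of the neuronal lineage, had 17 and 101 CPM, but it was no longer called with its highest cell left out. Hes6, which opposes Hes1 in neuronal precursors, was lower, at 425 and 184 CPM (0.432; 0.285 to 0.654). Hes6 was no longer called with each cell weighted equally, and neither Hes6 nor Elf5 with members over 2 times their library's median UMIs left out. Elf5 and Ifitm3 (below) were outside the rule for named genes and were added after their values were seen. Hey1 (221 and 225 CPM), Sox2 (ratio 1.17; 0.786 to 1.78) and Otx2 (1.12; 0.742 to 1.73) were not called. In other cells Hes1 stood at 52.3 and 62.4 CPM and Hes6 at 670 and 526.

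Genes of antigen presentation moved in both directions. Of 6 measured interferon and MHC genes 3 were higher and 2 lower, with a median of 0.35, against 6.32% and 4.93% over all measured genes. H2-D1, a class I heavy chain, stood at 1121, 129, 262 and 183 CPM, with UMIs in 26 of 41, 2 of 8, 30 of 61 and 11 of 15 members, a P7 to P0 ratio of 0.234 (0.172 to 0.315). H2-K1, another heavy chain, stood at 340 and 161 CPM (0.474; 0.301 to 0.748), but it was not called among members with at least 5 Cyp2g1 UMIs. B2m, the light chain that pairs with both, went the other way. It stood at 51.0, 107, 397 and 133 CPM, with UMIs in 6, 2, 38 and 9 members, a ratio of 7.79 (3.46 to 21.7). In other cells H2-D1 stood at 55.3 and 76.5 CPM and B2m at 95.2 and 163. H2-D1 was also unevenly spread at P0, with 456 CPM in members rich in Sult1c1 and 2436 in those without. Ifi27 (59.5 and 187 CPM) and Ifitm3 (187 and 311 CPM), both induced by interferon, were higher. Ifitm3 was not called with at least 2 Cyp2g1 UMIs or among members with at least 2 of the other 3 markers.

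Barrier and transport genes gave single calls. The counts that follow can again be read against 6.32% higher and 4.93% lower over all measured genes, and nothing is drawn from them. Of 17 junction genes Cldn3 (450 and 869 CPM; 1.93, 1.43 to 2.65) and F11r were higher and none lower. Of 9 ion and water genes Kcnk2 was higher (450 and 723 CPM; 1.61, 1.18 to 2.22), and of 8 apical cytoskeleton genes Krt19 (42.5 and 146 CPM). Of 13 phagocytosis and lysosome genes Rac1 and Ctsh were higher, of 7 lipid and sterol genes Clu (clusterin, 510 and 858 CPM; 1.68, 1.26 to 2.27), and of 3 fetal and imprinted genes Cdkn1c. Rac1, Ctsh and Cdkn1c were no longer called with the highest cell of each left out, nor was Hsd17b11. Without members over 2 times the median UMIs, Clu, F11r, Krt19 and Cbr1 were not called either. Kcnk2 lost its call with at least 5 Cyp2g1 UMIs and among members with at least 2 of the other 3 markers.
Of 18 oxidative phosphorylation genes Uqcrb and Atp5e were lower, neither of them called with median-of-ratios scaling. No gene was called among the measured cell cycle (6), dissociation stress (4), trophic (6), purinergic (4), retinoid (3) and entry factor (3) genes.

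The 12 called genes at each end of the comparison were of 2 kinds. Some were spread over many members. Il18, an inflammasome cytokine, had 0 UMIs at P0 and 23 in 15 members at P7, at least 3.38-fold higher against a floor of 3 counts at P0, while the exact interval of the ratio starts at 2.53. Tex261 stood at 8.49 and 116 CPM, in 1 and 24 members. Ly6e stood at 76.5 and 446 CPM, in 5 and 32 members, and in other cells at 19.5 and 62.1. Rabggtb, Lmo2 and Gk went from 8.49 CPM in 1 member each to 86.1 to 89.9 CPM in 16 to 18 members. With members over 2 times the median UMIs left out, Gk and Rabggtb were no longer called, nor was Ebf1. Downward, C1qtnf4 (ratio 0.176; 0.0672 to 0.418), Arl3 (178 and 52.4 CPM) and Sec61g (187 and 37.5 CPM) were lower in this way. Sec61g was lower in other cells as well, at 189 and 51.5 CPM. So was Polr2k, at 372 and 208. Ebf1, a neuronal factor, stood at 187 and 52.4 CPM in members and at 1220 and 1433 in other cells.
Others rested on 1 cell. At P0, 1 member held 95.5% of the UMIs of Penk (187 and 3.75 CPM), another 95.8% of those of Msln and another nearly all of those of Coch (255 and 3.75 CPM). At P7 the cell of 31601 UMIs carried nearly all Wfdc18 and Ltf, and all 25 UMIs of BC006965 lay in 1 member. Cxcl17 had 72.7% of its 22 UMIs in 1 member. With each gene's highest cell left out, 17 of the 24 kept their call. The 7 that lost it were Coch, Penk, Msln, Ltf, Wfdc18, BC006965 and Cxcl17, and Wfdc18 turned to 357 and 41.2 CPM.
Some entries cannot be assigned to a gene. Gm8730 (59.5 and 1094 CPM) shares its 3′ end with Rplp0 and differed 11.4-fold in other cells too, and Gm10076 (501 and 169 CPM) shares that of Rpl41. Sec61g, Polr2k and Uqcrb share theirs with pseudogenes. Vmo1 was lower, at 790 and 288 CPM, but 52.1 and 4.29 in other cells. Phlda1 stood at 280 and 74.9 CPM, in 7 and 6 members.

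**Figure D5:**
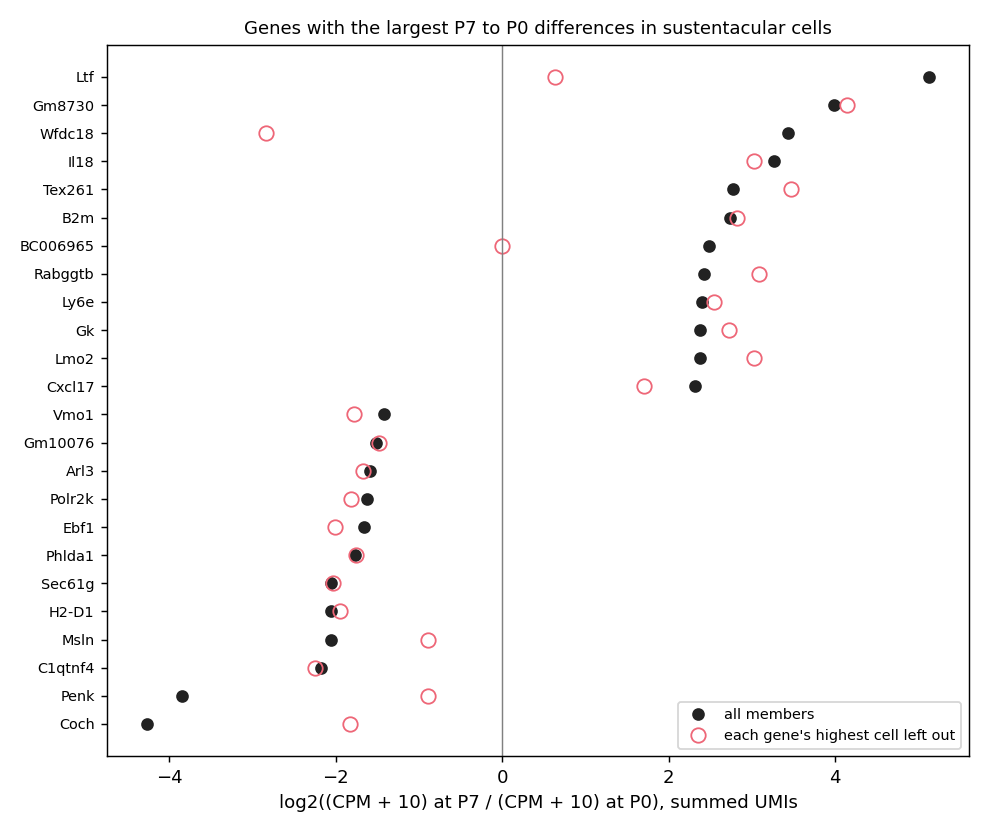
The 12 called genes at each end of the P7 to P0 comparison, as log2 of the ratio of CPM + 10. Filled points use all 41 and 61 members; open circles leave out each gene's highest cell in both libraries. B2m, H2-D1, Ly6e and Il18 barely move, while Ltf, Wfdc18, BC006965, Coch and Penk move far.

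Markers of other cells that moved with age are given for the same contrast. The stromal genes Dcn (459 and 708 CPM) and Rgs5 (722 and 2172 CPM) were higher. So were Scgb1c1 (4324 and 6595 CPM) and Ltf, both on the gland and secretory list. Without the members rich in Wfdc18, Rgs5 stood at 244 and 370 CPM and was not called, and Dcn kept its call (488 and 803 CPM), which it lost with at least 2 Cyp2g1 UMIs and among members with at least 2 of Cyp1a2, Ermn and Cbr2. Scgb1c1 stood at 3246 and 3589 CPM without them and was not called. Gng13, a neuronal gene, was lower (195 and 67.4 CPM), as was Sox11 of progenitors (272 and 161 CPM). Gng13 was not called without members over 2 times the median UMIs. Sox11 was not called there, nor without the members rich in Wfdc18, with at least 5 Cyp2g1 UMIs or with median-of-ratios scaling. Their part in the other differences was not tested. Leaving out the members rich in Wfdc18 gave 146 higher and 112 lower genes, of which 116 and 93 were among those above. H2-D1 (ratio 0.240), B2m (9.02), Hes1 (2.01), Elf5 (1.82), Klf5 (3.42) and Acsm4 (0.497) kept their calls.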

How the data were processed

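The deposited tables hold whole-number UMI counts per gene and cell, 1 table for each of 4 libraries. The authors' values come from a 3′ kit, per the labels' protocols, with Cell Ranger 2.1.1, Seurat and the build mm10 named in the submitters' processing notes; the part each tool played is not given there. No column lacked a sample (0 unmapped). Cells were kept at 500 or more genes and at most 10% mitochondrial UMIs. No doublet caller was run. Members' counts were summed per library with NumPy 2.4.6, in Python 3.11.15, and scaled to CPM. Levels carry exact Poisson intervals, shares Clopper-Pearson intervals and ratios exact conditional binomial intervals, all at 95% (SciPy 1.17.1). A P7 to P0 comparison needed 30 members per library; genes needed 50 CPM and 20 UMIs, and log2 changes used a pseudocount of 10 CPM. The scripts were tested on simulated data. UMIs remove PCR duplicates, but a 3′ count cannot separate genes with shared 3′ ends, so the last bases of 178 transcripts were searched with blastn 2.17.0+ (23 shared at least 90 bases at 98% identity). Of 49671 symbols, 47240 matched the annotation (95.1%). Figures were drawn with matplotlib 3.10.9.

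The members, marker genes, gene lists and alternatives were chosen with earlier results of these data known. Named genes were the 4 markers, the 20 highest ratios to other cells, the 10 most abundant genes, 12 called genes at each end of the age comparison and up to 4 per list. Alternatives covered the gate, the scaling, the minimum level, the pseudocount (for list medians), the highest cell and deep members.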

Additional observations from a re-analysis of the deposited data

How the results depend on the processing

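No paired analysis was possible because each age has 1 library. The number of members changed by more than 1.5-fold under 3 gates. With Omp and Gap43 both at 0 it was 24 at P0. With cells thinned to 2000 UMIs it was 25 at P0, 40 at P7 and 9 at P21. With at least 2 of Cyp1a2, Ermn and Cbr2 it was 9 at P21. The first 2 of these gates left under 30 members at P0, so no age comparison was made with them. Against 155 higher and 121 lower genes, leaving out members over 2 times the median UMIs gave 90 and 84, median-of-ratios scaling 224 and 73, and a minimum of 5 UMIs 205 and 242; the cause was not tested, beyond the fewer or more genes measured (1473, 2452 and 7096). The other settings gave 132 to 184 higher and 94 to 143 lower. The number of leading genes was 185 to 234 under other gates and 675 with no minimum beyond 5 UMIs. Log2 changes reversed for Wfdc18 (-4.28), BC006965 (-1.16), Rgs5 (-0.95) and Scgb1c1 (-0.58) without members over 2 times the median UMIs, for Wfdc18 (-2.84) and Rgs5 (-0.34) without the highest cell, and for Scgb1c1 (-0.28) with equal weight for each cell. They also reversed for Cdkn1c (-0.71) with at least 5 Cyp2g1 UMIs, for Cdkn1c (-0.41), Msln (1.42) and Sult1e1 (1.63) with at least 2 of the 3 markers, for Msln (1.45) without the member whose barcode is shared, and for Sult1e1 (0.24) without members rich in Wfdc18. H2-D1, B2m, Acsm4, Hes1 and Klf5 kept their call under each alternative run. The gates on the 3 markers, Wfdc18 and shared barcodes and the equal weight were chosen after seeing the data.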
